A study of Mus musculus with 6 samples.

Results

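The mouse genes Zfp700 to Zfp999 are numbered zinc finger protein genes, most of them of the KRAB family. They were taken as every row of the count files whose Ensembl identifier maps to a protein-coding GENCODE M21 gene with a symbol from Zfp700 to Zfp999. The rule names 128 genes; 123 of them have a row among the 28293 genes of the files, and the other 5 (Zfp711, Zfp735, Zfp750, Zfp831 and Zfp935) were not analysed here. The study compared a mouse dermal fibroblast cell line labelled as Lap2alpha knockout (KO, 3 libraries) with the wild-type line (WT, 3 libraries), both grown in DMEM with 10% fetal calf serum, by stranded RNA sequencing of polyadenylated RNA. LAP2alpha, a LAP2 protein without a membrane anchor, binds A-type lamins inside the nucleus. The study asked how its loss affects chromatin and the position of A-type lamins on the genome. How the knockout was made, and whether each genotype is 1 clone, is not given in the labels, and nothing there says that the libraries came from separate cultures, so the p-values rest on a spread that may be technical.

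A C2H2 zinc finger is a short fold held by a zinc ion, and a row of such fingers reads a DNA sequence. In KRAB zinc finger proteins the KRAB box at the other end of the protein binds the corepressor TRIM28, which brings in the histone methyltransferase SETDB1 and DNA methylation, and many of these proteins silence retroviral repeats. Many of the genes arose by local duplication, stand in clusters of near-identical copies, and are themselves often packed in heterochromatin marked by H3K9 methylation. Among the 123 genes, a pattern for the KRAB A box was found in the annotated coding sequence of 102 and not in 21. The proteins held a median of 11 fingers and at most 23, and in 5 no finger matched the pattern.

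The libraries held 25768678 to 27281473 counts in KO and 22159339 to 26553616 counts in WT. Levels are counts per 1000000 after TMM scaling (CPM), a scaling that evens out differences in composition between libraries. Tmpo, which encodes LAP2alpha and the membrane-bound LAP2 isoforms together, averaged 126 ± 7.15 CPM in KO cells and 259 ± 3.36 CPM in WT cells (mean ± SD, n = 3 libraries each here and below), so that its log2 fold change was -1.04 (SE 0.0549; edgeR adjusted p 4.9e-08); the gene count cannot tell its isoforms apart. The 10 fibroblast markers had a summed level of 22098 to 23673 CPM in the KO libraries and 6128 to 6515 CPM in the WT libraries. Of the 10, Lum averaged 2.22 CPM in KO cells and 0.0699 CPM in WT cells, and Thy1, lower in KO unlike the rest, 231 CPM in KO cells and 389.7 CPM in WT cells (-0.75, edgeR adjusted p 6.9e-07). Summed markers of 7 other cell types stayed below 9 CPM in every library: keratinocyte markers (5 of 7 in the files) summed to 4.75 to 6.31 CPM in KO and 6.98 to 8.91 CPM in WT, Schwann cell markers (3 of 4) to 5.10 to 7.01 CPM in KO and 1.45 to 1.73 CPM in WT, and endothelial markers (5 of 5) to 4.38 to 4.42 CPM in KO and 1.53 to 2.01 CPM in WT. Immune markers (4 of 6) summed to 2.71 to 4.30 CPM in KO and 0.892 to 1.12 CPM in WT, melanocyte markers (5 of 5) to 3.58 to 4.97 CPM in KO and 2.60 to 4.62 CPM in WT, skeletal muscle markers (3 of 5) to 3.07 to 3.29 CPM in KO and 0.793 to 0.952 CPM in WT, and adipocyte markers (3 of 4) to 2.10 to 2.34 CPM in KO and 6.62 to 7.46 CPM in WT. Dsp, Ptprc and Mlana, which mark keratinocytes, immune cells and melanocytes, had no count in the 3 KO libraries. They were scarcely counted in WT either, at means of 0.031, 0.016 and 0.074 CPM. Among other markers of these cell types, Csf1r (log2 fold change 3.35) and Mitf (1.39) were called higher in KO. Cdh1 (-0.97), Krt10 (-0.54) and Dct (-1.49) were called lower. The part of the fibroblast marker difference in the zinc finger results was not tested, and in bulk RNA fewer cells of a type and less RNA per cell cannot be told apart.

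Of the 123 genes, 113 had enough counts to be tested and 10 did not. In KO cells 53 were higher, 27 were lower and 33 were not called at an edgeR quasi-likelihood adjusted p under 0.05, with Benjamini-Hochberg adjustment over all 15081 tested genes. Knockout and wild-type libraries differed across the whole transcriptome: 75.1% of all tested genes were called, 37.7% higher and 37.5% lower in KO. Against that background the zinc finger genes had a larger share higher (46.9%) and a smaller share lower (23.9%), and their median log2 fold change was 0.25, beside 0.01 over all tested genes. Of the 12119 tested protein-coding genes, the type that these genes belong to, 40.3% were higher and 38.8% lower, with a median of 0.02. Values of KO and WT libraries were fully separated in 85 of the 113 genes (75.2%), against 76.7% of all tested genes and 81.2% of the protein-coding ones. The share with separated groups was thus close to that of all genes and below that of protein-coding genes. Most called changes were small. Only 9 of the 113 were both called and at least 2-fold higher in KO, where the share over all tested genes was 16.7%, and 9 were called and at least 2-fold lower, where it was 11.4%. The other 62 of the 80 called genes changed by less than 2-fold, with a median absolute log2 fold change of 0.66 over the 80 and 0.78 over all called genes.

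The 251 other numbered Zfp genes in the files are the set most like these. Of their 238 tested genes 136 (57.1%) rose and 44 (18.5%) fell in KO while 58 passed neither way and the median was 0.37 on the log2 scale. Whether the 2 sets differ was not tested.

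**Figure D1:**
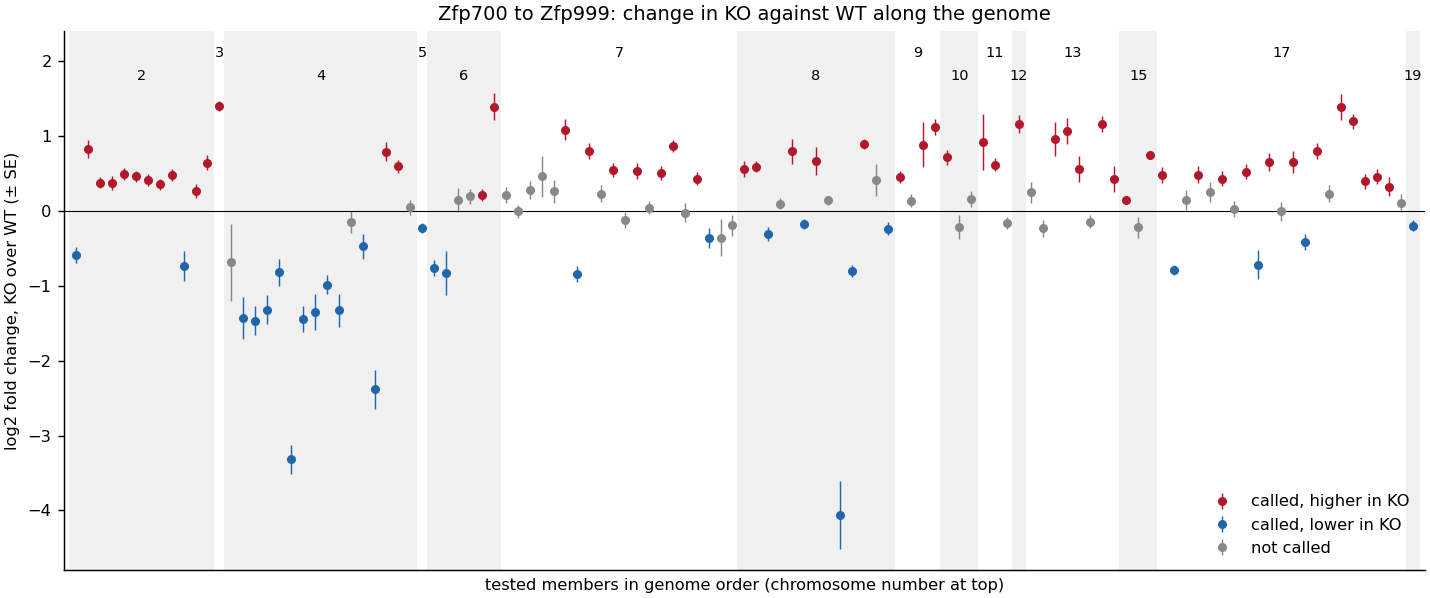
Log2 fold change of KO over WT (vertical axis, bars are ± SE of the edgeR fit, 3 libraries per genotype) for the 113 tested genes in genome order (horizontal axis, chromosome numbers at the top). Red points are called higher in KO (53), blue points called lower (27) and grey points not called (33); the run of blue points on chromosome 4 lies next to red ones, and Zfp882 on chromosome 8 is the lowest at -4.06.

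The summed level of all 123 genes was 1674, 1553 and 1542 CPM in the KO libraries, against 1386, 1301 and 1361 CPM in the WT libraries. Every KO library stood above every WT library. The mean was 1590 ± 73.4 CPM in KO and 1349 ± 43.2 CPM in WT, a ratio of 1.18. An exact two-sided permutation test of the 6 libraries gave p = 0.1, the smallest that 3 against 3 libraries allow, and 0.136 after adjustment over the 15 sums tested. The 251 other numbered Zfp genes summed to 4919 ± 157 CPM in KO and 4243 ± 107 CPM in WT. Their ratio was 1.16, also without overlap and with the same exact permutation p of 0.1. In plain counts the 123 genes took 0.157 to 0.172% of the reads in KO and 0.126 to 0.134% in WT. Single genes were mostly weakly expressed: their mean over all libraries ran from 0.450 to 186 CPM among the 113 tested, with a median of 8.78 CPM.

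The largest increases were shared between genes with and without a KRAB box. Zfp704, a zinc finger gene without a KRAB box (chr3:9427020-9610085, minus strand), had 52.2, 46.9 and 47.2 CPM in the KO libraries, against 19.03, 18.3 and 18.04 CPM in the WT libraries. The groups lay far apart, and the log2 fold change was 1.40 ± 0.0660 (SE; edgeR adjusted p 2.23e-08). Of its annotated exonic sequence 16.6% overlaps a gene on the opposite strand, and the strand setting of the counting is not given in the sources used here. Zfp811, a KRAB gene in the second chromosome 17 cluster, was at a much lower level, with 3.14, 2.63 and 2.93 CPM in the KO libraries, against 1.07, 1.16 and 1.08 CPM in the WT libraries. All KO values were above all WT values, with a log2 fold change of 1.39 ± 0.174 (edgeR adjusted p 3.45e-05). Zfp775 on chromosome 6, without a KRAB box and with 12.3% of its exonic bases opposite another gene, had 6.71, 7.12 and 9.87 CPM in the KO libraries, against 2.43, 3.30 and 3.23 CPM in the WT libraries. KO replicate 3 was the highest of the 6, and the fold change was 1.39 ± 0.181 on the log2 scale (edgeR adjusted p 4.53e-05).

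Zfp738, a KRAB gene of the chromosome 13 cluster with 20 fingers, had 19.8, 16.9 and 15.7 CPM in the KO libraries, against 7.88, 7.60 and 7.90 CPM in the WT libraries. The WT libraries were nearly equal, and no KO value came near them (log2 fold change 1.16 ± 0.102, edgeR adjusted p 2.15e-06). Zfp827, whose human counterpart ZNF827 recruits the NuRD chromatin remodelling complex, had 31.4, 31.3 and 31.7 CPM in the KO libraries, against 18.004, 15.6 and 17.3 CPM in the WT libraries. The KO libraries were nearly equal and all above WT, with a log2 fold change of 0.89 ± 0.0706 (edgeR adjusted p 9.77e-07). Other increases without overlap were Zfp799 (1.20), Zfp839 (1.16), Zfp949 (1.12), Zfp974 (1.09), Zfp759 (1.07), Zfp712 (0.96) and Zfp810 (0.88), all log2 fold changes with an edgeR adjusted p of at most 0.02. Zfp712, Zfp738 and Zfp759 lie together on chromosome 13.

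The largest decrease was that of Zfp882, a KRAB gene on chromosome 8 (chr8:71908608-71916354, plus strand). Its 1, 2 and 2 counts in KO correspond to 0.0357, 0.0730 and 0.0762 CPM in the KO libraries, against 0.746, 1.12 and 1.41 CPM in the WT libraries. The RNA was near the limit of detection in KO and low in WT, and the log2 fold change of -4.06 ± 0.455 (edgeR adjusted p 1.45e-05) is a 16.7-fold lower fitted level. Zfp617, a zinc finger gene that starts 27 bases after Zfp882 on the same strand and shares 2.91% of its exonic bases, was not called (log2 fold change -0.06). The next largest decreases, -3.32 in Zfp981 and -2.38 in Zfp985, both belong to 1 cluster on chromosome 4, as do Zfp980, Zfp986, Zfp987, Zfp988, Zfp989, Zfp991, Zfp992 and Zfp993. Zfp850 on chromosome 7 fell outside it, at 5.12 ± 0.292 CPM in KO cells and 9.19 ± 0.735 CPM in WT cells (log2 fold change -0.84 ± 0.105, edgeR adjusted p 3.41e-05).

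**Figure D2:**
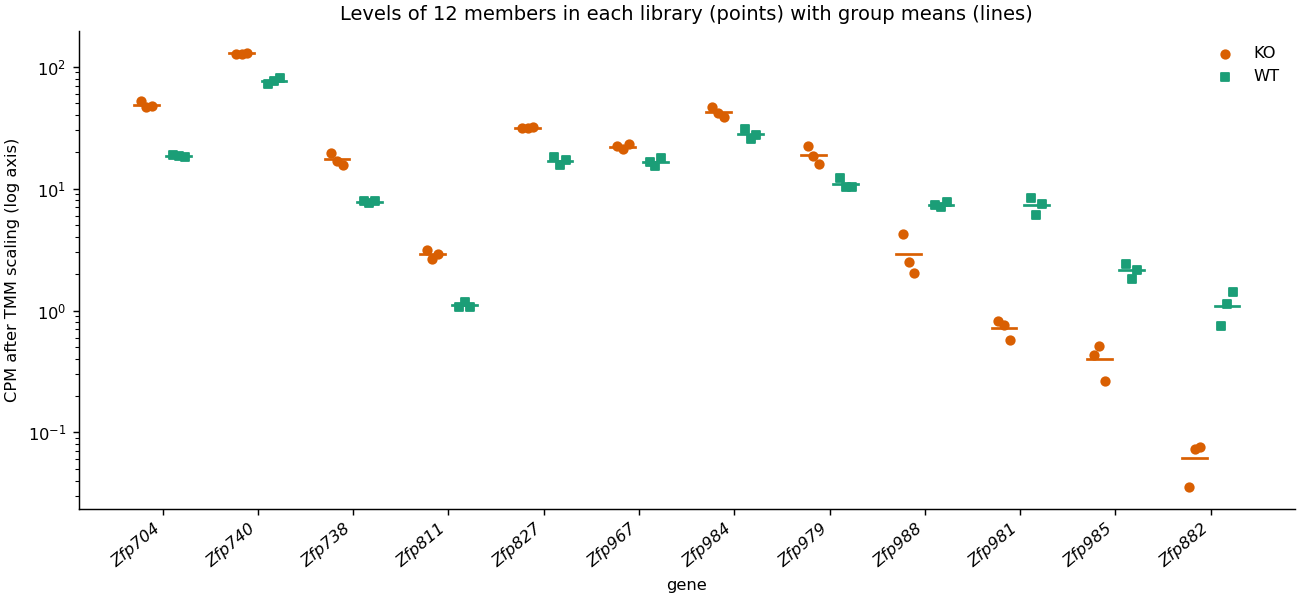
Levels of 12 zinc finger genes in each library (points, CPM after TMM scaling on a log axis) with the group means (lines), KO left of WT for each gene. KO points lie above WT for the 8 genes from Zfp704 to Zfp979 and below WT for Zfp988, Zfp981, Zfp985 and Zfp882.

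Of the 123 genes, 78 stood in 10 clusters of at least 4 members, in which neighbouring members start within 1 Mb of each other. The chromosome 4 cluster has 16 members, all with a KRAB box, over 2.34 Mb (chr4:145510759-147848366). In KO cells 11 of the 16 were lower, 2 were higher and 3 passed neither way; the median log2 fold change was -1.15. Among the called members the direction went with the strand, a grouping noticed only after the values were seen. Of the 13 members on the plus strand 11 were lower and 2 (Zfp978 and Zfp990) not called; their median log2 fold change was -1.33. Of the 3 on the minus strand, Zfp979 and Zfp984 were higher and Zfp933 was not called. These 3 start 2.10 to 2.31 Mb from the first member, beyond all 13 plus-strand members, the last of which starts at 2.04 Mb. Strand and position in the cluster therefore cannot be told apart among the members.

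On the plus strand, Zfp981 (chr4:146502027-146539395) had 0.821, 0.767 and 0.571 CPM in the KO libraries, against 8.35, 6.05 and 7.41 CPM in the WT libraries. KO was about 9.98-fold lower, with no overlap (log2 fold change -3.32 ± 0.195, edgeR adjusted p 1.03e-07). Zfp985 had 0.428, 0.511 and 0.267 CPM in the KO libraries, against 2.43, 1.82 and 2.15 CPM in the WT libraries, also without overlap (-2.38 ± 0.264 on the log2 scale, edgeR adjusted p 1.36e-05). Zfp988 was less even among the KO libraries, with 4.25, 2.48 and 2.02 CPM in the KO libraries, against 7.28, 7.06 and 7.70 CPM in the WT libraries. Its first KO library was the highest of the 3 and still below every WT library (-1.33 ± 0.220, edgeR adjusted p 0.00027). The other called members of this strand had log2 fold changes of -1.47 (Zfp986), -1.45 (Zfp993), -1.43 (Zfp980), -1.35 (Zfp989), -1.32 (Zfp987), -0.99 (Zfp991), -0.82 (Zfp992) and -0.47 (Zfp982). On the minus strand, Zfp979 had 22.5, 18.4 and 15.96 CPM in the KO libraries, against 12.3, 10.2 and 10.4 CPM in the WT libraries (0.79 ± 0.130, edgeR adjusted p 0.00026). The most abundant of the 3, Zfp984, had 46.7, 41.7 and 38.5 CPM in the KO libraries, against 30.9, 25.6 and 27.5 CPM in the WT libraries (0.60 ± 0.0892, edgeR adjusted p 0.00013). Both were higher in every KO library than in any WT library. Zfp933 had 11.9, 11.2 and 9.75 CPM in the KO libraries, against 11.4, 10.5 and 9.93 CPM in the WT libraries, with overlapping groups (0.05, edgeR adjusted p 0.66).

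Summed over the 13 plus-strand members, the level was 30.6, 24.1 and 22.2 CPM in the KO libraries, against 60.5, 52.1 and 56.7 CPM in the WT libraries, 2.20-fold lower in KO. The 3 minus-strand members summed to 81.1, 71.3 and 64.2 CPM in the KO libraries, against 54.6, 46.4 and 47.8 CPM in the WT libraries, 1.46-fold higher. Each of these sums gave the smallest exact permutation p of 0.1 (0.136 adjusted over the 15 sums). The strand split was made after the same values were seen, so these p-values cannot serve as a test of it. The whole cluster summed to 97.8 ± 12.8 CPM in KO and 106 ± 8.42 CPM in WT (exact permutation p = 0.4). Other tested genes of the span included 4 protein-coding ones. Zfp600 averaged 1.26 CPM in KO cells and 3.57 CPM in WT cells (log2 fold change -1.51), and Rex2 0.772 CPM in KO cells and 2.31 CPM in WT cells (-1.58). Zfp534 averaged 0.804 CPM in KO cells and 2.58 CPM in WT cells (-1.67). These were lower in KO, and Gm13212 was higher (0.30). Zfp534 is on the minus strand and Gm13212 on the plus strand, so strand did not divide every gene of the span. Of 19 tested genes of other types there, 13 were lower, 2 higher and 4 not called. Of those on the minus strand, Gm13232, Gm13167, Gm13237, Gm13160, Gm13136 and Gm13148 were lower. All of these are annotated as processed pseudogenes, so their reads may come from similar genes elsewhere, which was not tested. Gm13226 and Rps19-ps3 on that strand were higher, and Gm20707 was not called. The tested genes that flank the cluster were Tnfrsf1b, higher in KO (0.35), and Miip, lower (-0.83).

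The chromosome 2 cluster (chr2:174643534-178078476) went the other way. Of its 10 members with a row, all with a KRAB box, 9 were higher and 1 was lower in KO, with a median log2 fold change of 0.40. The summed level was 154.9, 144.0 and 147.1 CPM in the KO libraries, against 114.1, 108.6 and 113.2 CPM in the WT libraries, 1.33-fold higher in KO, and every KO library lay above every WT library. Zfp931 had 17.1, 15.8 and 13.8 CPM in the KO libraries, against 9.93, 9.50 and 10.3 CPM in the WT libraries (0.65 ± 0.0968, edgeR adjusted p 0.00013). Zfp972, the exception, had 1.68, 1.97 and 2.32 CPM in the KO libraries, against 3.54, 3.80 and 2.57 CPM in the WT libraries (-0.73 ± 0.198, edgeR adjusted p 0.0064); no finger pattern was found in its annotated protein, and its WT libraries were all above KO. Among 33 other tested protein-coding genes of that span 24 were higher and 2 lower in KO, 7 passed neither way, and the median was 0.33. Some of these had nearly the same values. Gm14440 averaged 24.7 CPM in KO and 13.1 CPM in WT, and Gm14288 25.1 CPM in KO and 13.4 CPM in WT. Sequence shared among these other genes was not measured, so they may not be separate observations. Of 14 tested genes of other types there, 7 were higher, 4 lower and 3 not called. The flanking genes were Prelid3b, lower in KO (-1.51), and Ppp1r3d, not called (-0.03).

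**Figure D3:**
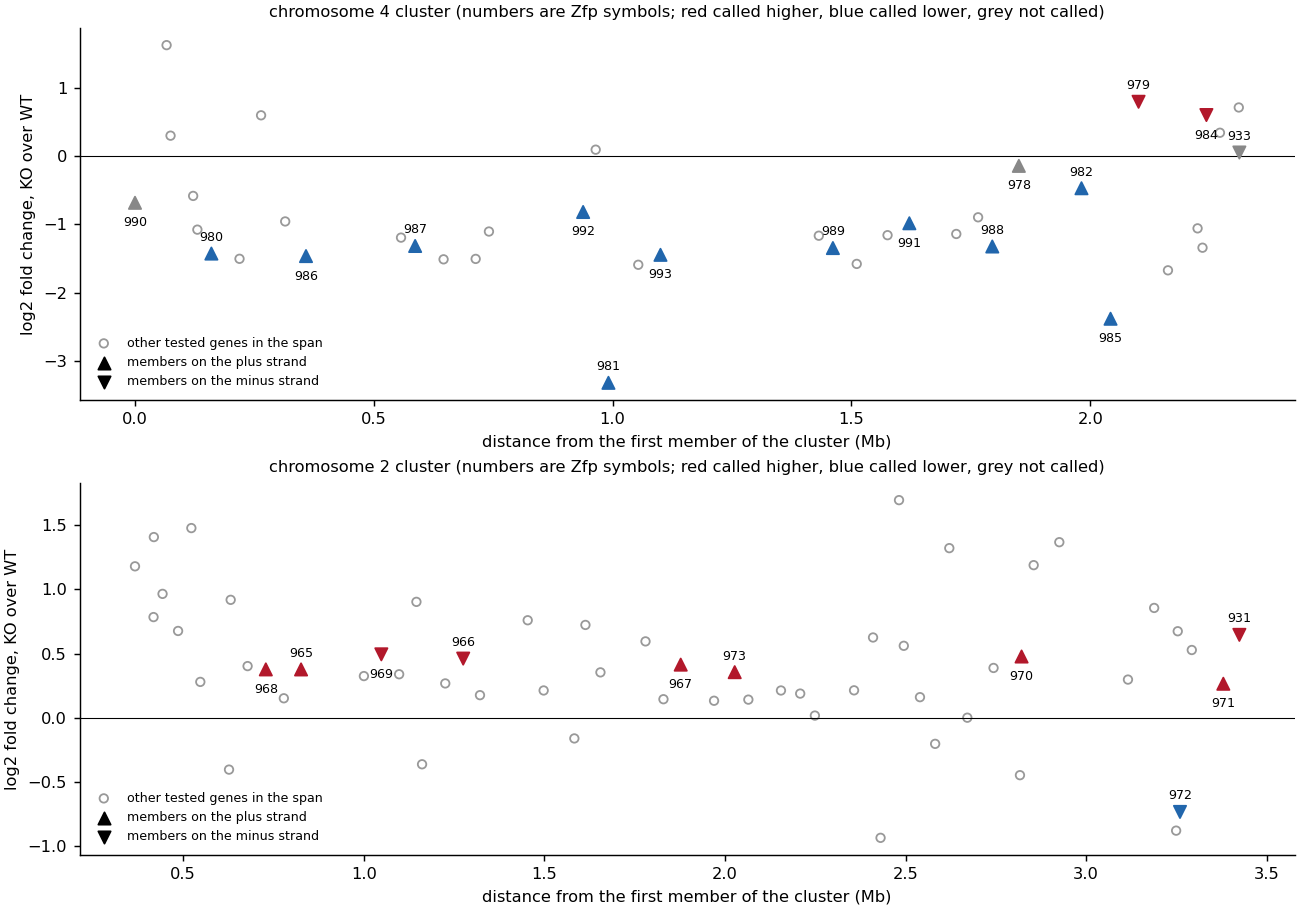
Log2 fold change of KO over WT (vertical axis) against distance from the first member in Mb (horizontal axis) for the chromosome 4 (above) and chromosome 2 (below) clusters. Triangles are the zinc finger genes, pointing up on the plus strand and down on the minus strand, red called higher in KO, blue called lower and grey not called; open circles are the other tested genes. On chromosome 4 the 13 plus-strand members lie below 0 and the 3 minus-strand members above it.

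Duplicated genes share sequence, which limits how reads can be told apart. Each gene's transcripts were cut into runs of 50 bases, and 37 of the 123 genes shared at least 20% of these with another gene. In the chromosome 2 cluster the median share was 84.7%, and Zfp967 and Zfp969 shared all of theirs. Zfp967 nevertheless had 22.2, 20.997 and 23.04 CPM in the KO libraries, against 16.7, 15.2 and 17.8 CPM in the WT libraries, and Zfp969 had 11.7, 11.98 and 12.7 CPM in the KO libraries, against 9.05, 8.46 and 8.32 CPM in the WT libraries. How reads that match several genes were counted is not given in the sources used here, so values of single members of the chromosome 2 and chromosome 4 clusters, where the median share was 61.2%, are uncertain. The sums and the numbers of called members of these clusters are uncertain too, because a read may have been counted for several members. Genes that shared under 20% gave 36 higher and 14 lower of 77 tested, 27 passing neither way; their median log2 fold change was 0.25. Those that shared at least 20% gave 17 higher and 13 lower of 36, and their median was 0.06. The chromosome 4 cluster holds 11 of the 27 lower genes.

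The promoter sequences of the chromosome 2 and 4 clusters show how alike the copies are. Of the 128 genes, 107 had a RefSeq promoter entry (GRCm38.p6, 250 bases before to 50 after the start). The 4 shown are Zfp967, whose promoter is letter for letter that of Zfp966 (chr2:175931051-175931350, minus strand) and whose RNA was higher in KO; Zfp980 and Zfp979, which are 89.8% identical and whose RNA went opposite ways on opposite strands; and Zfp882, the gene with the largest decrease. They lie at chr2:176520754-176521053 (plus), chr4:145670447-145670746 (plus), chr4:147642459-147642758 (minus) and chr8:71908356-71908655 (plus). Each is written 5′ to 3′ on the gene's strand, and capitals mark the CCAAT box letters (read as ATTGG on the other strand), the GC box letters GGGCGG and the TATA box letters TATAAA, on either strand. A GC box can begin inside a CCAAT box, as it does in ATTGGGCGG.
Zfp967: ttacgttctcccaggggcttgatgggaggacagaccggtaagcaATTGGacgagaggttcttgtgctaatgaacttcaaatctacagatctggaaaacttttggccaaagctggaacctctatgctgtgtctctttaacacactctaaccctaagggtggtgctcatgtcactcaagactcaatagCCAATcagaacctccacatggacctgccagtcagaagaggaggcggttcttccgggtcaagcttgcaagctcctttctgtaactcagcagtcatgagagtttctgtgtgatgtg
Zfp980: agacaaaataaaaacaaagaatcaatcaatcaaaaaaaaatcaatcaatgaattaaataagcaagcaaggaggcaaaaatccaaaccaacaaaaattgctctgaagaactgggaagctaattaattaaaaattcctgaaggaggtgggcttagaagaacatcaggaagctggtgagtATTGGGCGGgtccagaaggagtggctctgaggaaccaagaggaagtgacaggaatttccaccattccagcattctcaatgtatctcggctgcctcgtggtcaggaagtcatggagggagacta
Zfp979: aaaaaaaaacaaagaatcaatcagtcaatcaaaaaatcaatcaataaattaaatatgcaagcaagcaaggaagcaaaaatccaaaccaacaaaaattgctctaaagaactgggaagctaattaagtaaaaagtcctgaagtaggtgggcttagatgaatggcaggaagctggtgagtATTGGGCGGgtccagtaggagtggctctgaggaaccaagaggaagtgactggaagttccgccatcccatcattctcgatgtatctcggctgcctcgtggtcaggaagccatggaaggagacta
Zfp882: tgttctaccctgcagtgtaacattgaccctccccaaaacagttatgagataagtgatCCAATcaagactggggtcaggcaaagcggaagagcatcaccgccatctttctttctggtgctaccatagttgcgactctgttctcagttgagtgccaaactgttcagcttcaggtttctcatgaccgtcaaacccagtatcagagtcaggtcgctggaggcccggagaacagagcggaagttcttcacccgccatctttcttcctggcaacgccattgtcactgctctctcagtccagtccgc

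CCAAT, in either orientation, was in 72 of the 107 promoters (67.3%), against 37.9% of 27025 RefSeq promoters of the same length. GGGCGG was in 41.1% against 35.9%, TATAAA in 2.80% against 14.2%, and CCGGAAG in 16.8% against 9.12%. Both strands were searched for each. The joined form ATTGGGCGG was in 9 of the 107 (8.41%), against 0.278% of all; 7 of the 9 lie in the chromosome 4 cluster, in genes that were lower (Zfp980, Zfp981, Zfp982, Zfp985, Zfp988) and higher (Zfp979, Zfp984) alike. Of the 9 chromosome 2 promoters, 9 held CCAAT, 6 held CCGGAAG and 0 held GGGCGG. Pairwise identity had a median of 78.2% among the chromosome 2 promoters and 74.5% among the 9 of chromosome 4. These values, and the 89.8% of Zfp980 and Zfp979, count gaps and overhanging ends as mismatches. Windows whose annotated starts are offset, such as those of Zfp968 and Zfp966 (84.0%), therefore look less alike than their shared stretch is. These matches describe letters in the windows and nothing about binding.

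Elsewhere the clusters differed in direction. On chromosome 13, 4 of 5 tested members were higher and 1 was not called (median log2 fold change 0.96), and the sum was 36.6 ± 3.85 CPM in KO and 24.4 ± 1.15 CPM in WT. In the second chromosome 17 cluster 5 of 6 were higher (median 0.43), at a summed 93.8 ± 10.9 CPM in KO and 71.3 ± 4.81 CPM in WT. The first chromosome 17 cluster, with 13 members, was mixed: 6 were higher, 3 lower and 4 not called. Within it Zfp945 was at 18.5 ± 2.53 CPM in KO cells and 10.6 ± 0.0883 CPM in WT cells (0.80 ± 0.104) and Zfp948 at 20.1 ± 1.13 CPM in KO cells and 34.9 ± 0.999 CPM in WT cells (-0.79 ± 0.0658), and the cluster's sum was 179 ± 19.9 CPM in KO and 169 ± 11.2 CPM in WT (exact permutation p = 0.6). On chromosome 8, 2 members were higher, 2 lower and 2 not called, led by Zfp964 (0.80) and Zfp930 (-0.31), and the sum was 92.4 ± 4.84 CPM in KO and 92.7 ± 2.08 CPM in WT (exact permutation p = 0.9). The chromosome 6 cluster had 2 higher, 1 lower (Zfp786, -0.83, with overlapping groups) and 2 not called. Its sum was 51.1 ± 4.69 CPM in KO and 41.3 ± 1.80 CPM in WT, with every KO library above every WT library. The first of 3 chromosome 7 clusters had 4 tested and 0 called by edgeR, the DESeq2 Wald test or limma-voom. Of these, Zfp954 (0.28, edgeR adjusted p 0.053) had an unadjusted p under 0.05 and was called by edgeR under the 3 other scalings (library totals, upper quartile, DESeq2 size factors), with a filter of 1 CPM in 3 libraries and without KO replicate 1 (edgeR adjusted p 0.011 to 0.049). The largest value was that of Zfp773 (0.47). This cluster's sum was 25.5 ± 1.28 CPM in KO and 23.4 ± 0.228 CPM in WT, again without overlap. The second had 3 higher, Zfp788 foremost (0.54), and 2 not called, and the third 1 higher (Zfp768), 1 lower (Zfp747, -0.36, overlapping) and 2 not called. The 45 genes outside clusters summed to 774 ± 21.2 CPM in KO and 628 ± 15.04 CPM in WT.

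**Figure D4:**
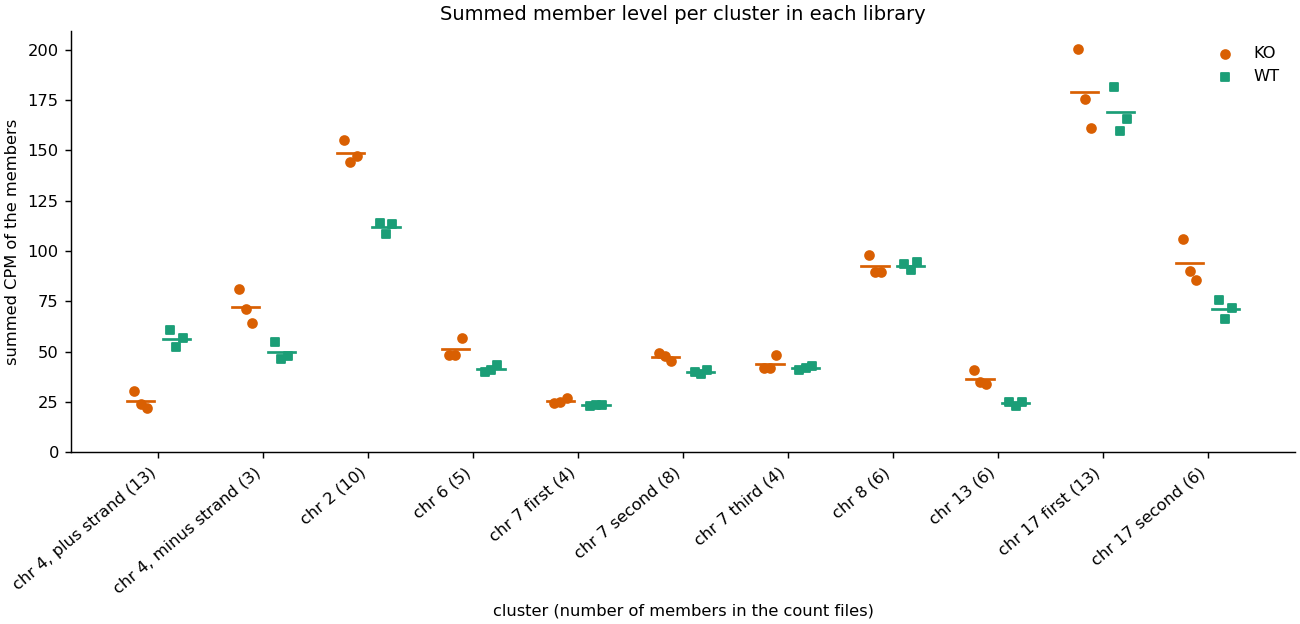
Summed CPM of the zinc finger genes of each cluster (vertical axis, from 0) in each library (points) with group means (lines), KO left of WT, the number of members in parentheses. The KO points lie above WT for the minus strand of chromosome 4 and for chromosomes 2, 6 and 13. They also do so for the first and second chromosome 7 clusters and the second chromosome 17 cluster. They lie below WT for the plus strand of chromosome 4. KO and WT points mix for chromosome 8, the third chromosome 7 cluster and the first chromosome 17 cluster.

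The levels per length put a few genes far above the others. By mean CPM per kb of exonic length over the 6 libraries, Zfp706 was at 37.3, Zfp740 at 20.1, Zfp869 at 16.1, Zfp984 at 12.1 and Zfp967 at 11.01. Zfp706, a small protein that in mouse embryonic stem cells holds back Klf4, had 201, 189 and 197 CPM in the KO libraries, against 182, 170 and 177 CPM in the WT libraries; its increase was small though separated (0.15 ± 0.0514, edgeR adjusted p 0.022). Zfp740 had 128, 128 and 130 CPM in the KO libraries, against 72.1, 76.8 and 80.98 CPM in the WT libraries, a clear increase without overlap (0.74 ± 0.0559, edgeR adjusted p 6.51e-07). Zfp869 had 24.7, 23.3 and 24.5 CPM in the KO libraries, against 27.3, 27.5 and 26.9 CPM in the WT libraries and was slightly lower (-0.17 ± 0.0604, edgeR adjusted p 0.023).

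Genes with a known function moved both ways. Zfp703, a corepressor whose human counterpart is an oncogene in luminal breast cancer and 13.5% of whose exonic bases lie opposite another gene, was at 25.9 ± 1.25 CPM in KO cells and 17.2 ± 0.909 CPM in WT cells (0.59 ± 0.0725, edgeR adjusted p 3.02e-05). Zfp768, whose human counterpart is a substrate of RAS signalling, was at 18.4 ± 0.985 CPM in KO cells and 13.6 ± 1.36 CPM in WT cells (0.43 ± 0.0903, edgeR adjusted p 0.0014). Zfp800, a regulator of endocrine pancreas development in mice, was at 14.2 ± 2.02 CPM in KO cells and 24.1 ± 2.31 CPM in WT cells and fell by 0.76 on the log2 scale (edgeR adjusted p 9.73e-05). Both retrovirus repressors changed call with the scaling. Zfp809, which silences murine leukaemia viruses through TRIM28, was at 11.8 ± 0.903 CPM in KO cells and 10.8 ± 0.343 CPM in WT cells and was not called (0.14, edgeR adjusted p 0.18). Zfp932, a repressor of endogenous retroviruses, was at 21.1 ± 0.351 CPM in KO cells and 24.7 ± 1.20 CPM in WT cells and was lower (-0.23, edgeR adjusted p 0.0091). Scaled by library totals alone, Zfp809 was called higher (0.21, edgeR adjusted p 0.049) and Zfp932 was not called (-0.15, edgeR adjusted p 0.059). Zfp830, which acts in pre-mRNA splicing, was not called at 16.3 ± 0.377 CPM in KO cells and 18.3 ± 1.40 CPM in WT cells (edgeR adjusted p 0.084). The genes best expressed among those not called were Zfp871 (0.23), Zfp866 (0.14), Zfp942 (0.02), Zfp944 (-0.01) and Zfp771 (-0.02). Of these, Zfp866 had all 3 KO values above all WT values at an edgeR adjusted p of 0.051, and both Zfp866 and Zfp871 were called higher under 6 of the 14 other settings, library totals and upper-quartile scaling among them. Untested for low counts were Zfp708, which silences repeats in mouse oocytes, Zfp819 and 8 others (Zfp709, Zfp784, Zfp853, Zfp872, Zfp936, Zfp951, Zfp957 and Zfp977), with at most 13 counts in a library. Of Zfp708's exonic bases 96.4% are shared with an overlapping gene on the same strand, and of Zfp784's 94.8% lie opposite Zfp865, so their counts are uncertain.

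The calls were also counted by protein features. Of 95 tested genes with a KRAB box 43 were higher and 24 lower (median log2 fold change 0.25), and of 18 without 10 were higher and 3 lower (median 0.22). Genes with at least 10 fingers had a median of 0.27, and those with fewer 0.17. Across the 113 genes the Spearman correlation with the log2 fold change was 0.089 for fingers, 0.120 for protein length and -0.219 for the share of sequence held in common; genes of a cluster are not independent points.

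The partners of KRAB proteins are given for the same cells. Of 32 listed corepressor, H3K9 methylation and DNA methylation genes, all tested, 11 (34.4%) were higher and 12 (37.5%) lower in KO, close to the 37.7% and 37.5% of all tested genes, and 9 passed neither way, around a median log2 fold change of -0.05. Trim28, the KRAB corepressor, was at 190 ± 16.6 CPM in KO cells and 251 ± 1.73 CPM in WT cells (-0.40, edgeR adjusted p 0.0002). Setdb1, the methyltransferase it recruits, was at 100.0 ± 1.70 CPM in KO cells and 89.9 ± 3.22 CPM in WT cells (0.15, edgeR adjusted p 0.019). Hells, a remodeller needed for DNA methylation, had the smallest p, at 49.7 ± 4.83 CPM in KO cells and 228 ± 19.0 CPM in WT cells (-2.20, edgeR adjusted p 5.6e-09). Uhrf1 (-1.25) and Dnmt1 (-0.997), which keep up DNA methylation after replication, were also lower. Dnmt3a, another DNA methyltransferase gene of the list, was higher, at 36.9 ± 1.46 CPM in KO cells and 18.4 ± 0.985 CPM in WT cells (1.00, edgeR adjusted p 2.7e-07). Chd3, a NuRD subunit (1.32), and Atf7ip, the partner of SETDB1 (1.10), were higher.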

How the data were processed

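Gene-level RNA sequencing counts of 6 libraries were analysed. The authors deposited raw counts per Ensembl gene, 1 file per library. Reads were aligned with STAR 2.7.10b and the genome build was GRCm38, per the submitters' processing notes. Which program counted the reads, with which annotation and strand setting, and what it did with reads matching several genes: not given in the sources used here. Symbols, positions and transcripts came from GENCODE M21, in which 28230 of 28293 identifiers were found.

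The comparison used edgeR 4.0.16 under R 4.3.3: TMM scaling, the filterByExpr filter, a quasi-likelihood test of KO against WT over all genes and Benjamini-Hochberg adjustment. A gene is called at an adjusted p under 0.05. CPM is the count divided by the TMM-scaled library size, times 1000000. Sums were compared with exact two-sided permutation tests. The edgeR fit was also run on simulated counts in which only a small part of the genes changed. That run cannot judge the scaling or the calls where most genes change, as in these data. Zinc fingers and KRAB boxes (at least 15 of 22 positions scored) were found by pattern in the translated GENCODE coding sequence, in place of the RefSeq proteins first planned; the KRAB threshold was lowered by 1 position after Zfp773 fell just short of it. Exonic overlap came from the same annotation, and shared sequence by runs of 50 bases in GENCODE transcripts. Promoters came from RefSeq (GRCm38.p6); entries over 2 kb from the gene were left out.

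The text names, by rule, Tmpo; the 12 largest called increases and the 12 largest called decreases whose higher group averaged 1 CPM or more and whose groups were separate; the 5 highest levels per length; the 5 best expressed genes not called; genes with a known role; the extremes of each cluster; and of the cofactors Trim28, Setdb1 and the 6 with the smallest p. 1 gene that the rule names is not reported here. Genes outside it were picked with their values known. The members and lists were chosen with earlier results of these data known. Alternatives were other scalings, filters and tests (DESeq2 1.42.0, limma-voom in limma 3.58.1), a replicate block and leaving out each library. With libraries of 22159339 to 27281473 counts, counting error is large for genes of a few counts.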

Additional observations from a re-analysis of the deposited data

How the results depend on the processing

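The count of zinc finger genes higher in KO was 53 and of those lower 27. With library totals alone they were 61 and 20, with upper-quartile scaling 60 and 23, with the DESeq2 Wald test 49 and 22, and without a low-count filter 50 and 26. Leaving out 1 library in turn gave 46 to 52 higher and 22 to 25 lower. The median log2 fold change stayed between 0.21 and 0.33 over these settings, and the summed level's log2 ratio between 0.21 and 0.31. Counts over all tested genes also moved with the scaling. There 5678 were higher and 5652 lower in the main fit, 6181 and 5139 with library totals, and 6090 and 5223 with upper-quartile scaling. The median over all tested genes was 0.01, 0.09 and 0.07 in these fits. All-gene counts were 5392 and 5360 with the DESeq2 Wald test, and 6406 and 6182 without a low-count filter. Of 77 tested genes that share under 20% of their sequence runs, 14 were lower, a setting chosen after seeing the data. The labels do not say whether the replicate numbers pair the libraries. Same-numbered KO and WT libraries had correlations of 0.15, -0.12 and 0.16 of their deviations from the group means, which do not settle it. KO replicate 2 correlated best with WT replicate 1 (0.20) and KO replicate 3 with WT replicate 2 (0.27). With the number as a block, 55 zinc finger genes were higher and 27 lower. Over all tested genes 11697 were called with the block and 11330 in the main fit. Of 698 fits of 50 named genes under 14 settings, 645 kept direction and call, 26 lost the call, 14 gained it and 13 changed sign, the last all in 3 uncalled genes near 0. Zfp942 had log2 fold changes of -0.074 to 0.13 with 1 library left out, and they were negative without KO replicate 1, WT replicate 2 (-0.012) or WT replicate 3 (-0.020). Zfp944 had 0.057 with upper-quartile scaling, 0.072 with library totals, 0.0044 with a filter of 1 CPM in 3 libraries, and -0.093 to 0.12 with 1 library left out. Zfp771 had 0.040 with upper-quartile scaling, 0.054 with library totals and -0.20 to 0.091 with 1 library left out. The cause was not tested. Of the 80 called genes, 15 lost the call when at least 1 library was left out. Zfp982 did so without KO replicate 1 or 3 or WT replicate 1 or 3 (edgeR adjusted p 0.061 to 0.087), Zfp971 without the same 4 (0.051 to 0.10), Zfp810 without KO replicate 1 or WT replicate 1 or 2 (0.062 to 0.083) and Zfp706 without KO replicate 3 or WT replicate 2 or 3 (0.055 to 0.088). The same held for Zfp869 without KO or WT replicate 2 (0.072 to 0.10), Zfp786 without KO replicate 2 or 3 or WT replicate 1 or 3 (0.062 to 0.090), Zfp747 without KO replicate 1 or 2 or WT replicate 2 or 3 (0.068 to 0.10) and Zfp930 without KO replicate 2 (0.058). The others were Zfp746, Zfp763, Zfp821, Zfp825, Zfp879, Zfp950 and Zfp953. Other settings also ended calls: Zfp869 had -0.11 with upper-quartile scaling, -0.097 with library totals and a DESeq2 adjusted p of 0.080. Zfp747 lost its call under both scalings, Zfp930, Zfp932 and Zfp982 with library totals, Zfp786, Zfp971 and Zfp982 in the DESeq2 Wald test, and Zfp706 and Zfp971 without a low-count filter. Calls were gained by Zfp871 (replicate block, adjusted p 0.0047) and Zfp866 (replicate block, 0.046; limma-voom, 0.047), by Zfp809 with library totals and by Zfp830 without WT replicate 3 (0.032). Depth limits Zfp882, which has 5 counts in the KO libraries together.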
